A study of Mus musculus with 6 samples.

Results

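The cell cycle and replication licensing genes described here were 40 named genes that drive or mark the division cycle. They were chosen by name, and every probe set of the array whose platform annotation gave 1 symbol from that list was taken. The array measured 39 of the 40 with 92 probe sets, out of 18193 genes with a single symbol. No probe set was matched to Ccnb1, so it is named here without a value. Of the 39 genes, 10 had 1 probe set and 29 had more, up to 7 for Ccnd2.

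RNA came from mouse embryonic stem (ES) cells of the line EBRTcH3, kept in medium with leukemia inhibitory factor, LIF. Induced cells had spent 24 h without tetracycline. Control cells (T0) had tetracycline in the medium. In both groups the ROSA26 locus of every cell held human WBSCR1, tagged with 3xFLAG, behind a promoter that tetracycline represses, so the controls carried the transgene too and its expression cannot be told apart from the removal of tetracycline. WBSCR1 encodes eIF4H, a cofactor of translation initiation, and the transgene's own level was not analysed here. The clones A1, A3 and A4 were replicates 1, 2 and 3, with 1 induced and 1 control Affymetrix whole-genome mouse array each, so n = 3 arrays per group. Every value below is a log2 signal after the robust multiarray average (RMA), on which 1 unit is a 2-fold change.

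In the mammalian cycle, D-type cyclins with Cdk4 or Cdk6, and then cyclin E with Cdk2, phosphorylate the retinoblastoma family of pocket proteins and so free E2F factors to switch on genes of S phase. Origins are licensed when the origin recognition complex, Cdc6 and Cdt1 load the Mcm2 to Mcm7 helicase, and geminin holds Cdt1 in check until mitosis ends. Mouse ES cells are known for a short G1 phase and for cyclin E and Cdk2 activity that stays high through the cycle.

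Promoter sequence was used to describe what these genes shared beyond their names. RefSeq promoters of build GRCm38.p6, each with 250 bases before and 50 after an annotated start, were matched for 31 of the 40 genes, with 35 promoters. Ccnd1, Ccnd2, Ccne2, Ccna2, Rb1, E2f4, Gmnn, Mcm4 and Aurkb were not matched. The E2F element was searched on both strands as TTTCCCGC, TTTCGCGC, TTTGCCGC or TTTGGCGC, the CHR element of mitotic genes as TTTGAA or TTCGAA, and the CCAAT box as CCAAT. An E2F form was found in 7 of 9 licensing genes (77.8%) and in 1 of 10 mitotic genes (10%), against 2.61% of the 27025 genes in the RefSeq table. A CHR form was found in 9 of 10 mitotic genes (90%) and 2 of 9 licensing genes (22.2%), against 21.7% of all genes. CCAAT stood in all 10 mitotic promoters and in 7 of 9 licensing promoters, against 41.1% of all genes. A match is a description of letters in this window and not a binding site. The promoters of Cdk6, Ccne1 and Pcna held no E2F form in this window.

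The windows of 30 bases below show, with the E2F letters in capitals, the licensing genes Cdc6, Mcm5, Mcm6 and Orc1, and Cdk2. Cdc6 and Cdk2 are the genes with the largest clone differences in either direction among those with a matched promoter. In Mcm5 and Mcm6 a form on each strand overlapped the other by 4 bases, so the capitals run through both. Mcm6 held a further form, not shown, that began at -47 from the annotated start.
Cdc6: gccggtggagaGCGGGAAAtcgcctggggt
Mcm5: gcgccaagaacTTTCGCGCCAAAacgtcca
Mcm6: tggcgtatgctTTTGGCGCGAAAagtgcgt
Orc1: ttcggttagtgGCGCGAAAagttttctcct
Cdk2: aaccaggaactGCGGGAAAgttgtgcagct
They lie at chr11:98908002-98908031, plus strand (Cdc6), chr8:75109345-75109374, plus strand (Mcm5), chr1:128359797-128359826, minus strand (Mcm6), chr4:108579416-108579445, plus strand (Orc1) and chr10:128705173-128705202, minus strand (Cdk2). All 5 windows are upstream of the annotated start.

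For the mitotic genes Cdk1, Ccnb2, Mki67 and Top2a the capitals mark 1 CHR form of each. Each promoter held others that are not shown. Counted from the annotated start, these began at -15 (Cdk1), 4 (Ccnb2), -116 (Mki67) and -179, -120 and -23 (Top2a).
Cdk1: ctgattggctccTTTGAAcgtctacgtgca
Ccnb2: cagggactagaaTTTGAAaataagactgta
Mki67: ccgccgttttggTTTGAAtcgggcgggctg
Top2a: ctaattggtttaTTCGAAaaggcggtcttt
Their positions are chr10:69352966-69352995, minus strand (Cdk1), chr9:70421704-70421733, minus strand (Ccnb2), chr7:135716460-135716489, minus strand (Mki67) and chr11:99024312-99024341, minus strand (Top2a). The Cdk1 and Top2a windows also hold a CCAAT box on the opposite strand, ahead of the CHR letters.

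**Figure D1:**
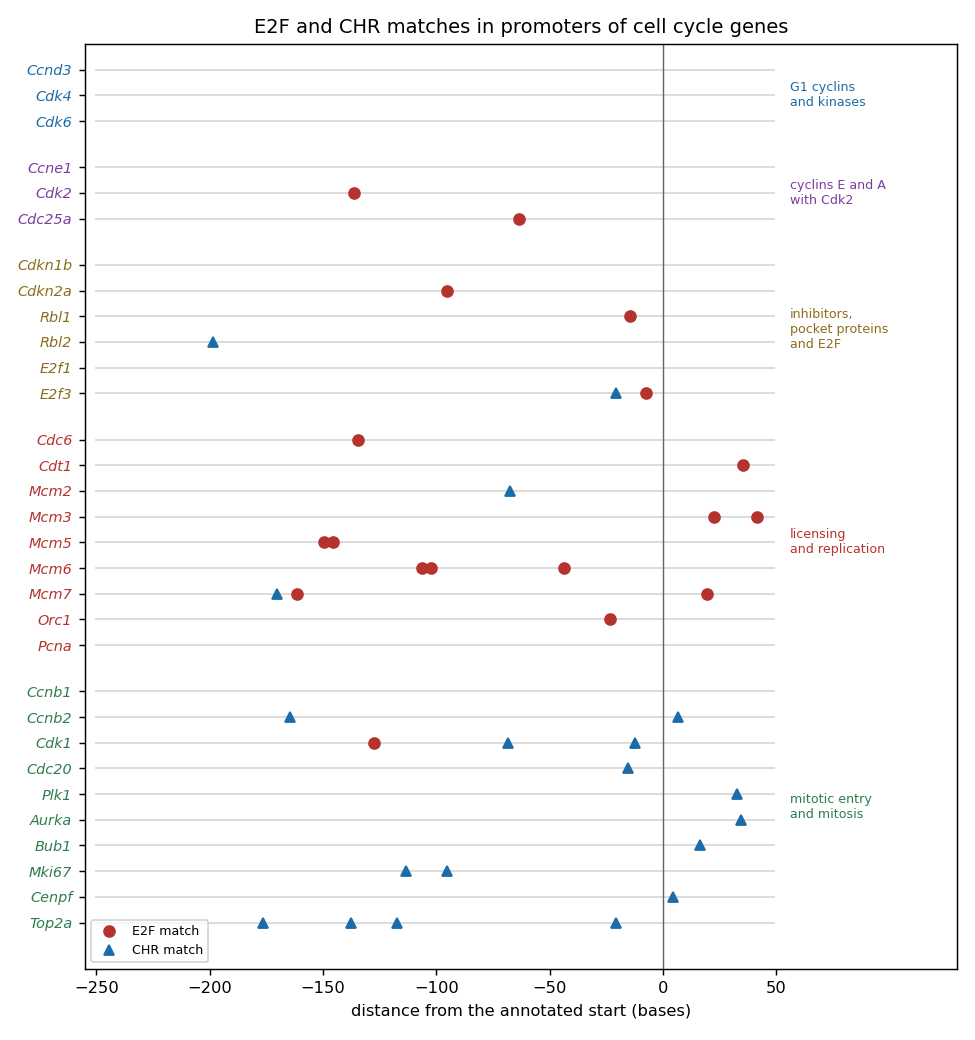
Positions of E2F forms (circles) and CHR forms (triangles) in RefSeq promoters of the 31 matched genes, drawn as distance in bases from the annotated start, with genes on the vertical axis coloured by role. Circles gather in the licensing genes (7 of 9) and triangles in the mitotic genes (9 of 10).

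The arrays themselves had medians of 5.11 to 5.18. The brightest probe set was above the array median on every array for 38 of the 39 genes. Cdkn2a was the exception, at 4.10 to 4.29. All 8 ES cell markers were measured and averaged 12.3 to 12.6 on each array, while 7 fibroblast and feeder markers averaged 4.50 to 4.66, and neither list had a gene called for induction or in A3. Of 7 measured differentiation markers, averaging 5.21 to 5.48, 3 were above and 4 below the other clones in A3 on their brightest probe sets. Of these Gata4 and Gata6, transcription factors of primitive endoderm, were called lower (differences of -0.76 and -0.73). The second Gata4 set gave 0.14 (adjusted p = 0.51), and Pax6, a neural factor, gave 0.41 (adjusted p = 0.069) on its brightest set. The 2 arrays of A3 also had a smaller beta-actin 3' minus 5' difference, 0.29 and 0.32, against 0.40 to 0.45 on the other 4. The 18S ribosomal RNA signal was 7.27 and 6.61 on the A3 arrays, against 7.03 and 5.66 for A1 and 5.99 on both A4 arrays. The spike-in controls, added bacterial and phage transcripts, also stood apart in A3. They comprised polyA spike-ins (Dap, Lys, Phe and Thr) and hybridization spike-ins (BioB, BioC, BioD and Cre). All 24 probe sets of the Dap, Lys, Phe and Thr transcripts had both A3 arrays above the other 4, with means of 7.27 (induced) and 7.39 (control) in A3, against 5.97 to 6.35 on the other arrays. The same held for all 4 BioC sets and for 3 of 6 BioB sets, while all 4 Cre sets and 3 of 4 BioD sets had both A3 arrays below the other 4. These transcripts do not come from the cells, so the A3 arrays differed from the others also in signals outside cellular RNA. The part of these differences in the results on A3 was not tested.

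On induction, no cell cycle gene passed the test. In the moderated test of limma, 0 of 92 probe sets were called (background over all 45037 probe sets, 0%), with 2 at an unadjusted p under 0.05, against 676 over all probe sets. Both of the 2 lay below every array's median and were named after their values were seen. The Ccnd2 set 1416124_at had 3.48, 3.55 and 3.17 on the induced arrays of A1, A3 and A4, against 2.95, 3.16 and 2.77 on the controls, a difference of 0.44 (adjusted p = 1.00). The Rbl1 set 1454293_at had 3.78, 3.96 and 3.77 induced, against 3.53, 3.37 and 3.66 control, a difference of 0.32 (adjusted p = 1.00). In both sets each clone was higher when induced. The brightest probe sets of the 39 genes differed by -0.18 to 0.13, induced minus control. Of these, 19 were higher and 20 lower, with a median of -0.0010, beside 0.0028 over all genes. The 95% interval of the difference lay within 0.5 log2 of 0 for 31 of the 39 (79.5%), near the 81.5% of all genes. For the other 8 the interval reached past 0.5 log2. These intervals come from the fit on condition alone, so their width includes the spread between clones. With clone in the fit as a block, the standard error was smaller for each of these 8. It was 0.11 in place of 0.41 for Cdc6, and 0.14 in place of 0.16 for Ccne2.

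On the brightest probe set of each gene, the 3 higher values with the smallest unadjusted p belonged to Ccne2, Orc1 and Cdkn2a. Ccne2, one of the cyclin E genes, had 7.24, 6.64 and 6.67 on the induced arrays of A1, A3 and A4, against 6.70, 6.76 and 6.72 on their controls, a difference of 0.13 ± 0.16 (SE). The induced A1 array alone stood above the other 5, the groups overlapped, and without that array the difference was -0.068. Orc1, the large subunit of the origin recognition complex, had 9.78, 9.80 and 9.59 on the induced arrays, against 9.63, 9.71 and 9.59 on the controls (0.082 ± 0.10). It was higher in A1 and A3 and level in A4. Cdkn2a, which encodes the Cdk4 and Cdk6 inhibitor p16 and the p53 regulator Arf, had 4.29, 4.28 and 4.19 induced, against 4.28, 4.18 and 4.10 control (0.063 ± 0.095). Both groups of Cdkn2a values were below every array's median.

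The 3 lower values belonged to Mki67, Cdk6 and Cenpf. Mki67, the proliferation marker of the mitotic chromosome surface, had 9.76, 9.30 and 9.92 on the induced arrays of A1, A3 and A4, against 9.79, 9.69 and 10.02 on the controls, a difference of -0.18 ± 0.17 (SE). Cdk6 had 7.45, 7.02 and 7.34 induced, against 7.62, 7.35 and 7.34 control (-0.17 ± 0.14). Cenpf, a kinetochore protein, had 9.27, 8.99 and 9.41 induced, against 9.35, 9.25 and 9.52 control (-0.15 ± 0.13). Mki67 and Cenpf were lower in every clone, with A3 lowest in both groups, while Cdk6 was lower in A1 and A3 and level in A4. The groups overlapped in all 3 genes. Without the induced A3 array the differences were 0.0019 for Mki67, -0.041 for Cdk6 and -0.037 for Cenpf. The adjusted p was 1.00 for all 6 genes by the moderated test, and 7 of the 39 genes kept 1 direction in all 3 clones, beside 3854 of all 18193.

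**Figure D2:**
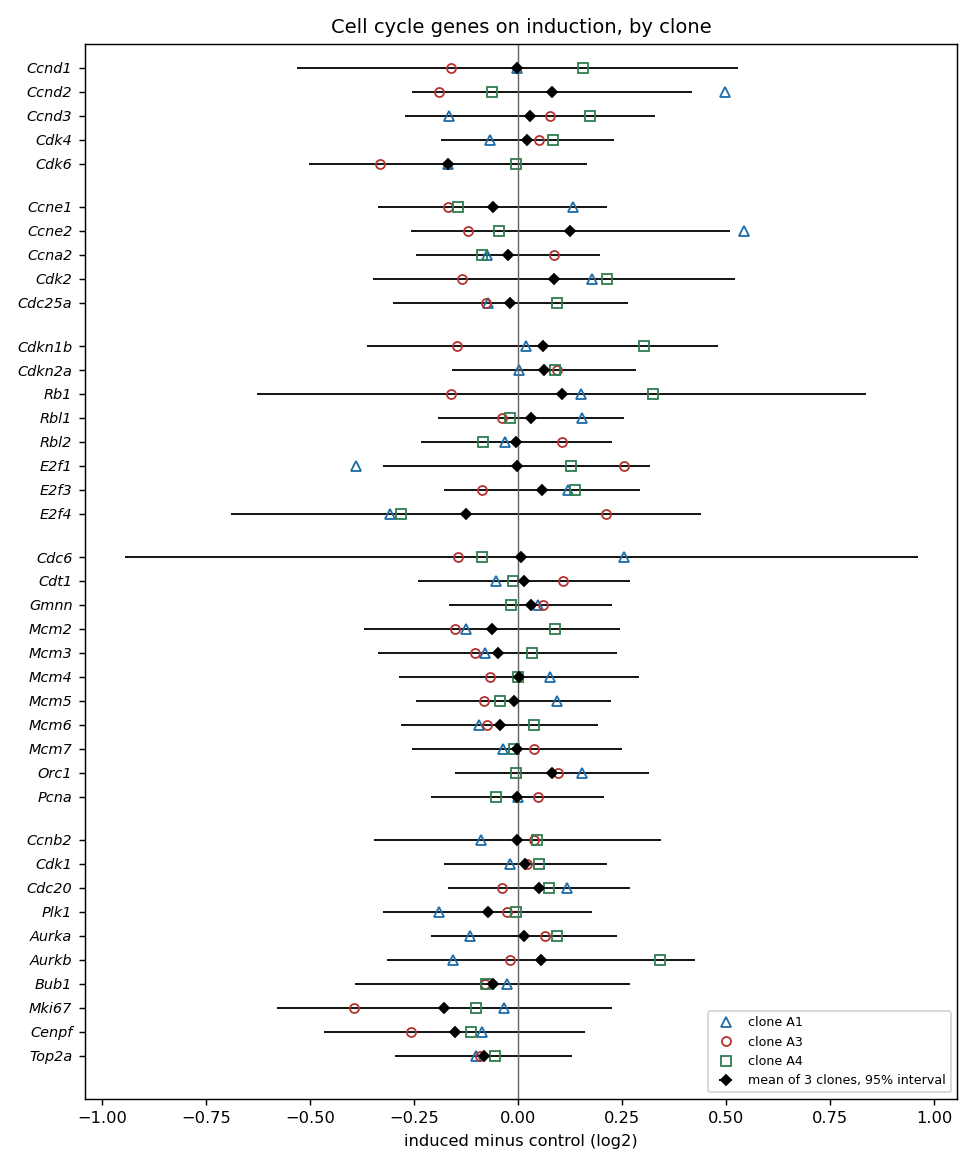
Induced minus control in log2 for the brightest probe set of each of the 39 genes, as the mean of the 3 clones with its 95% interval (diamonds) and for each clone (open symbols, 1 array pair each). The means lie between -0.18 and 0.13, and every mean's interval includes 0.

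Between clones, some of the genes differed. The F test over clones, which compares the spread between clones with that between the 2 arrays of a clone after condition, called 5 of 92 probe sets (5.43%) in 4 genes, Ccnd1, Cdk6, Rb1 and Cdc6, near the background of 5.54%. Clone A3 against the mean of A1 and A4 gave 8 probe sets in 7 genes (8.70%, background 9.57%), of which 7 in 6 genes were lower in A3 (7.61%, background 5.68%) and 1 was higher (1.09%, background 3.89%). A1 gave 0 of 92 (background 0.666%) and A4 gave 0 of 92 (background 0.486%), with 14 and 7 at an unadjusted p under 0.05, against 5583 and 4961 over all probe sets. On the brightest probe set of each gene, 3 of 39 passed the F test (background 6.84%), 4 were lower in A3 (background 6.32%) and 1 was higher (background 5.13%). Among probe sets with a mean of at least 5 log2, the shares were below background. There the F test called 5 of 76 (6.58%, background 11.1%) and A3 gave 9 of 76 (11.8%, background 19.1%). Refitted on 1 probe set per gene, the F test called 4 of 39 (10.3%, background 11%). In that refit A3 gave 7 of 39 (17.9%, background 16.1%).

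Cdc6, which loads the helicase onto origins, showed the largest difference of the 92 probe sets. It had 9.06 (induced) and 9.20 (control) in A3, against 10.47 and 10.21 in A1 and 10.16 and 10.25 in A4. Both A3 arrays lay below the lowest of the other 4. That Cdc6 was lower in A3 was already known when the genes were listed. The difference was -1.15 ± 0.27, where ± gives the 95% interval here and for the other clone differences (adjusted p = 0.0016, F test adjusted p = 0.0051). The call was kept in 17 of 17 alternatives, with values from -1.26 to -1.03. Of the other licensing genes, none was called. In bulk RNA, fewer cells in a phase of the cycle and less RNA per cell cannot be told apart.

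Rb1, the founding pocket protein, had 7.14 (induced) and 7.30 (control) in A3, against 8.18 and 8.03 in A1 and 8.20 and 7.88 in A4. The A3 arrays were the lowest 2 of the 6. The difference was -0.85 ± 0.28 (adjusted p = 0.0057), and it was kept in 16 of 17 alternatives, being lost without the induced A3 array (adjusted p = 0.064). The other Rb1 probe set, which lay between 4.43 and 5.18, gave -0.23 (adjusted p = 0.22). The other pocket proteins, Rbl1 and Rbl2, gave -0.0036 and -0.11 on their brightest sets and were not called. Their other sets reached 0.22 and 0.16.

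E2f4, an E2F that represses together with pocket proteins, had 9.01 (induced) and 8.80 (control) in A3, against 9.25 and 9.56 in A1 and 9.44 and 9.72 in A4. The A3 arrays were below the other 4. The difference was -0.59 ± 0.31 (adjusted p = 0.030). The call was kept in 10 of 17 alternatives and was lost without the induced A1 array (0.068) or the control array of A1 (0.10), A3 (0.20) or A4 (0.081). Without the control A3 array the difference was -0.34. E2f1 and E2f3, activating E2F factors, gave 0.12 and -0.13 and were not called.

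Ccnd1, the cyclin D1 gene, was lower on 2 of its 3 probe sets. The set 1417420_at had 9.32 (induced) and 9.48 (control) in A3, against 10.09 and 10.09 in A1 and 9.90 and 9.74 in A4, a difference of -0.55 ± 0.25 (adjusted p = 0.018). The set 1448698_at had 8.73 and 8.87 in A3, against 9.40 and 9.501 in A1 and 9.17 and 9.23 in A4 (-0.53 ± 0.22, adjusted p = 0.014). On both sets the 2 arrays of A3 were lowest. The third set, 1417419_at, had 8.51 and 8.68 in A3, against 9.84 and 9.18 in A1 and 8.85 and 9.34 in A4, and its difference of -0.71 ± 0.48 was not called (adjusted p = 0.076). The first call was lost without the induced array of A1 (0.075), A3 (0.19) or A4 (0.057) or the control of A1 (0.064). The second was lost without the induced array of A1 (0.062) or A3 (0.13) or the control of A1 (0.052) or A3 (0.067). Of the other D-type cyclins, Ccnd2 gave -0.084 and Ccnd3 -0.23 on the brightest set, neither called. The 7 Ccnd2 sets ran from -0.50 (1434745_at, adjusted p = 0.11) to 0.26, with 6 lower in A3 and 0 called.

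Cdk6, a partner of D-type cyclins, was called on 1 of 3 probe sets. That set, 1435338_at, had 6.79 (induced) and 6.85 (control) in A3, against 7.52 and 7.36 in A1 and 7.29 and 7.24 in A4 (-0.53 ± 0.24, adjusted p = 0.017). The brightest set, 1455287_at, had 7.02 and 7.35 in A3, against 7.45 and 7.62 in A1 and 7.34 and 7.34 in A4 (-0.26 ± 0.25, adjusted p = 0.19), and here the A3 control overlapped A4. The dimmest set, 1460291_at, had 5.07 and 4.93 in A3, against 5.24 and 5.08 in A1 and 4.78 and 5.04 in A4 (-0.037 ± 0.28). The call was lost without the induced array of A1 (0.076) or A3 (0.17) or the control of A3 (0.053). Cdk4, the other such kinase, gave 0.057 ± 0.23.

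Ccne1, the other cyclin E gene, was called on 1 of 2 probe sets. That set had 10.43 (induced) and 10.48 (control) in A3, against 10.82 and 11.08 in A1 and 10.98 and 10.88 in A4 (-0.48 ± 0.26, adjusted p = 0.034). Both A3 arrays were below the other 4. The brighter set, whose name marks probes that may cross-hybridize, gave -0.19 ± 0.25 (adjusted p = 0.34). The call was lost without any 1 of the 3 induced arrays (0.057 for A1, 0.18 for A3, 0.10 for A4) or the control of A1 (0.0999) or A3 (0.14).

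Cdk2, the kinase partner of cyclins E and A, was the only gene called higher in A3. It had 9.70 (induced) and 9.83 (control) in A3, against 9.46 and 9.28 in A1 and 9.37 and 9.16 in A4, and both A3 arrays were above the other 4. The difference was 0.45 ± 0.26 (adjusted p = 0.046). The call was kept in 6 of 17 alternatives and was lost on leaving out any single array, with adjusted p between 0.068 and 0.28. Without the control A3 array the difference was 0.28. It was also lost when array medians were subtracted (0.066) or with array weights (0.054). A second Cdk2 set, at 2.05 to 2.30, gave 0.021.

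**Figure D3:**
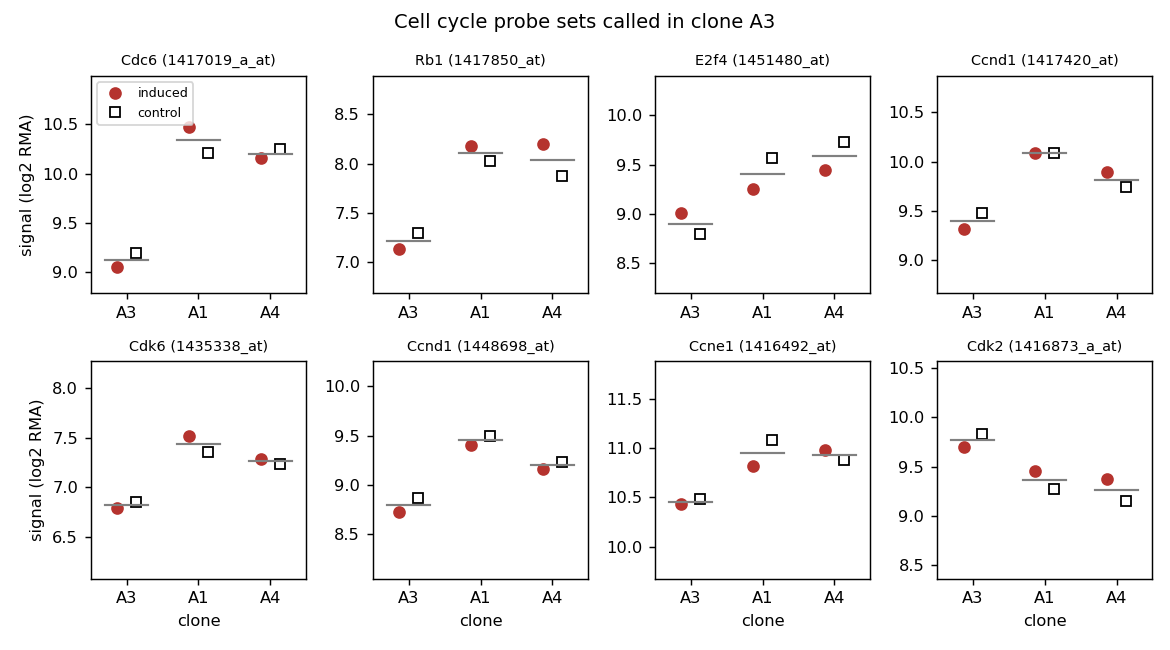
Log2 RMA signal of the 8 probe sets called in clone A3, by clone, with induced arrays as filled circles, control arrays as open squares and a line at each clone's mean of 2 arrays. Every panel spans the same range in log2 units. The A3 arrays are below those of A1 and A4 in 7 panels and above them for Cdk2.

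Most licensing genes lay below A1 and A4 in clone A3. Only Cdc6, whose lower level in A3 was known when the genes were listed, passed the test. On the brightest probe sets, 9 of 11 were lower in A3, Cdc6 among them, with a median of -0.19. The median over all genes was 0.038, with 7695 lower and 10498 higher. All 6 of Mcm2 to Mcm7, the subunits of the replicative helicase, were lower, with differences of -0.28 to -0.14 and a median of -0.22, and none was called. Over all 19 of their probe sets, 16 were lower, with a median of -0.16. The BioD spike-ins, also bright, averaged 10.98 (induced) and 11.23 (control) in A3, against 11.29 to 11.49 on the other arrays. For Cre the means were 12.99 and 13.14 in A3, against 13.21 to 13.34. The dimmer Dap, Lys, Phe, Thr and BioC transcripts were higher in A3. Other bright members, with means of 11.1 to 13.3, went both ways in A3. Higher were Ccnb2 (0.34), Top2a (0.10), Ccna2 (0.10), Cdk4 (0.057) and Gmnn (0.0023). Lower were Cdk1 (-0.0076), Cdc20 (-0.037), Pcna (-0.058), Ccne1 (-0.19), Cdt1 (-0.19) and Ccnd3 (-0.23). The part of signal level in the Mcm differences was not tested. Mcm2 had 11.09 (induced) and 11.24 (control) in A3, against 11.39 and 11.51 in A1 and 11.47 and 11.385 in A4 (-0.28 ± 0.24, adjusted p = 0.15). Mcm4 had 11.55 and 11.62 in A3, against 11.87 and 11.79 in A1 and 11.86 and 11.86 in A4 (-0.26 ± 0.23, adjusted p = 0.15). In both genes the A3 arrays were below the other 4. Mcm3 gave -0.25, Mcm7 -0.20, Mcm6 -0.16 and Mcm5 -0.14. Cdt1, the loading partner of Cdc6, gave -0.19 ± 0.23, and Gmnn, its inhibitor geminin, gave 0.0023 ± 0.22. Orc1 gave 0.11 and Pcna, the sliding clamp of the fork, -0.058.

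In 2 probe sets of this group the 3 induced arrays spread apart. The Mcm4 set 1436708_x_at had 11.45, 10.41 and 11.44 on the induced arrays of A1, A3 and A4, against 11.07, 11.02 and 11.09 on the controls. The Mcm6 set 1438852_x_at had 10.91, 10.24 and 10.95 induced, against 10.58, 10.72 and 10.63 control. In both, the induced arrays of A1 and A4 were above all controls and the induced A3 array was below them. Neither set was called. On the brightest sets the changes in A1, A3 and A4 were smaller, 0.077, -0.067 and 0.0010 for Mcm4 and -0.094, -0.075 and 0.038 for Mcm6.

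The mitotic genes were split in direction in A3. Of the 10 measured, 6 were higher and 4 lower, with a median of 0.10, and none was called. Over all 18193 genes, 10498 were higher and 7695 lower, with a median of 0.038. Ccnb2, a B-type cyclin, had 11.34 (induced) and 11.30 (control) in A3, against 10.88 and 10.97 in A1 and 11.06 and 11.01 in A4. Both A3 arrays were above the other 4, and the difference of 0.34 ± 0.23 missed the threshold (adjusted p = 0.076). Aurkb, the Aurora kinase of the chromosomal passenger complex, gave 0.32 ± 0.29 and Bub1, a kinase of the spindle checkpoint, 0.28 ± 0.22. Plk1 and Aurka, kinases of mitotic entry, gave 0.18 and 0.096, and Top2a, which untangles chromosomes, 0.10. Cdk1, the mitotic kinase itself, gave -0.0076 ± 0.22 and Cdc20, the activator of the anaphase-promoting complex, -0.037. Mki67, whose values on each array are above, gave -0.37 ± 0.26 (adjusted p = 0.085), and Cenpf gave -0.27 ± 0.23. Over all 19 mitotic probe sets 9 were higher and 10 lower, so the balance on the brightest sets did not carry over.

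None of the remaining genes was called in A3. Cdkn1b, the inhibitor p27 of cyclin E and Cdk2, had 8.57 (induced) and 8.71 (control) in A3, against 8.16 and 8.14 in A1 and 8.61 and 8.31 in A4, so A3 overlapped A4 (0.33 ± 0.28, adjusted p = 0.13). Cdc25a, the phosphatase that activates Cdk2, gave -0.24 ± 0.23, Ccne2 -0.13, Ccna2, the cyclin A gene, 0.10, and Cdkn2a 0.015. The second Ccna2 set, 1417910_at, went the other way (-0.16, adjusted p = 0.38). By role, the A3 medians were -0.23 for G1 cyclins and kinases, -0.13 for cyclins E and A with Cdk2 and -0.056 for inhibitors, pocket proteins and E2F. The median for cyclins E and A with Cdk2 was 0.029 without the induced A1 array, 0.015 without the induced A3 array and 0.0076 without clone A1, so its sign rested on single arrays. Over the 92 probe sets, both A3 arrays were below the other 4 in 30 (32.6%, background 16.6%) and above them in 10 (10.9%, background 19.8%).

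**Figure D4:**
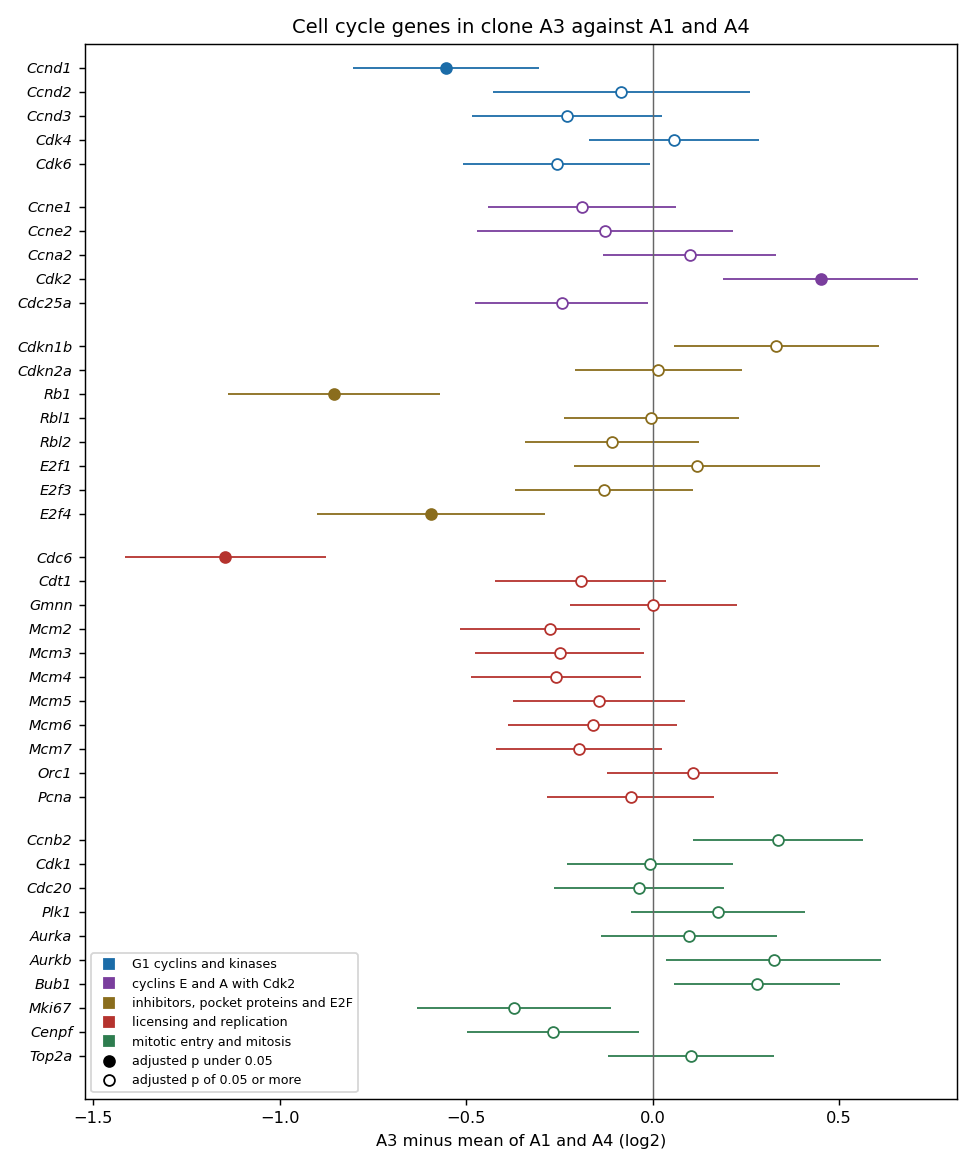
Difference of clone A3 from the mean of A1 and A4 in log2, with its 95% interval, for the brightest probe set of each of the 39 genes, coloured by role. Filled points have an adjusted p under 0.05. Cdc6 lies farthest to the left at -1.15, all 6 Mcm genes lie left of 0, and Cdk2 is the filled point right of 0.

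Further genes of the same pathways, counted on their brightest probe set, gave 0 calls on induction in each of 4 lists. The backgrounds for A3 calls on these sets were the same 6.32% lower and 5.13% higher. In direction, 10498 of all 18193 genes were higher in A3 and 7695 lower, with a median of 0.038. Among 18 other G1 and restriction point genes, 6 were higher and 12 lower in A3, with a median of -0.090, and 1 was called higher and 3 lower. Cdkn1c, the inhibitor p57, had 8.26 (induced) and 8.36 (control) in A3, against 10.11 and 9.89 in A1 and 9.47 and 9.81 in A4. It was low in A3 (-1.51 ± 0.30, adjusted p = 0.00079) and high in A1 (1.03, adjusted p = 0.022). The other calls were Tfdp1, the dimer partner of E2F factors (-0.49), E2f5 (-0.47) and Cdkn2d, the inhibitor p19 (0.41).

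Among 18 other origin licensing and firing genes, 16 were lower in A3, with a median of -0.17, and 1 was called. Recql4, a helicase needed to start replication, had 7.34 (induced) and 7.43 (control) in A3, against 7.96 and 8.07 in A1 and 7.94 and 7.996 in A4 (-0.60 ± 0.22, adjusted p = 0.0084). Of 19 measured genes of the replication fork and nucleotide supply, 17 were lower, with a median of -0.078, and 1 was called, Tyms (thymidylate synthase, -0.68, on a set at 4.86 to 5.86).

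Of 31 other mitotic genes, 21 were higher in A3 and 10 lower, with a median of 0.052, beside 0.038 over all genes. In each direction 1 was called. Espl1, the separase gene, had 9.98 (induced) and 10.01 (control) in A3, against 10.54 and 10.74 in A1 and 10.81 and 10.74 in A4 (-0.71 ± 0.24, adjusted p = 0.0062). Nusap1, a spindle protein, was higher (0.49). Pttg1, the separase inhibitor securin, was low in A1 instead, with 11.51 and 11.46 in A1, against 12.21 and 12.02 in A3 and 12.21 and 12.26 in A4 (-0.69, adjusted p = 0.034). Neither Pttg1 array of A1 overlapped the other 4.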

How the data were processed

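The deposited values were log2 signals. The authors made them from Affymetrix whole-genome mouse arrays by RMA in the affy package (version not given in the sources used here), without pooling. Groups, replicate numbers and clones came from the sample labels.

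Of 45101 probe sets, 64 array controls were left out. The annotation gave 1 symbol for 34945 of the remaining 45037, several for 932 and none for 9160, and only sets with 1 symbol were named. The set with the highest mean spoke for a gene.

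Moderated fits used limma 3.58.1 (R 4.3.3), two-sided, adjusted by Benjamini-Hochberg over all 45037 at 0.05. Induction was fitted with condition alone, as in the study's methods, and clones with condition in the fit. The clone p-values measure only the spread between the 2 arrays of a clone, and induction within a clone, with 1 array per condition, could not be tested. The labels pair induced and control arrays by clone, and paired deviations from the group means correlated at 0.67 (A3), 0.31 (A1) and 0.29 (A4). Between clones, induced A4 with control A1 gave 0.35 and induced A1 with control A4 0.37, above these clones' own values, so the pairing rests on the labels. Precision is limited by having 6 arrays. The fits were tested on simulated data. For induction these data held no differences between clones, so they do not test that fit under the clone spread seen here.

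Members and lists were chosen with earlier results of these data known, among them that Cdc6 was lower in A3. Array values are given for the 3 higher and 3 lower members with the smallest unadjusted p on induction, for members past the clone tests and for up to 2 genes a pathway list past the F test. Other genes and probe sets with values were chosen after being seen. Alternatives were other scalings, trend and robust eBayes, array weights, a mean of at least 5 log2, 1 probe set per gene, a threshold of 0.1, a replicate block, the methods' t-test, no condition term and leaving out arrays or clones. Figures were made in Python 3.11.15 (matplotlib 3.10.9).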

Additional observations from a re-analysis of the deposited data

Results flagged for a closer look

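In 5 of the 92 probe sets (5.43%) the signal was higher by at least 0.4 log2 in the induced array of A1 and lower by at least 0.4 in that of A4, each against its own control. None moved the opposite way, and over all probe sets the shares were 0.797% and 0.113%. The limit of 0.4 was chosen after the values were seen, and the difference between the clones was not tested, since each clone and condition had 1 array. The change in A1 minus that in A4 was 1.14 for Ccnd1 (1417419_at), where the changes were 0.65 in A1, -0.17 in A3 and -0.49 in A4. For the Ccnd2 sets it was 1.32 (1448229_s_at) and 1.48 (1416123_at, whose values lay below the array median). For Cdc25a (1417131_at) it was 0.816 and for Cenpf (1458447_at) 1.56. In none of these genes did the brightest probe set show this split. Its changes were -0.0019 (A1) and 0.16 (A4) for the Ccnd1 set 1417420_at. The Ccnd2 set 1416122_at gave 0.50 and -0.063, the Cdc25a set -0.071 and 0.093 and the Cenpf set -0.086 and -0.11. On the 7 Ccnd2 sets the changes in A1, from 1 array pair, ran from 0.50 to 1.02. They ran from -0.31 to 0.39 in A3 and from -0.46 to 0.39 in A4.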

How the results depend on the processing

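Percentages in parentheses are the share of all probe sets tested that the same setting called. Induction gave 0 calls among the 92 probe sets in every alternative, including the replicate block and the methods' t-test, paired or not. With the block, 3 were at an unadjusted p under 0.05, against 1539 over all 45037 probe sets. The F test between clones gave 5 calls (5.54%), 8 with trend and robust eBayes (8.03%), 0 without both the A4 control and the induced A1 array (0.0666%), and 0 to 6 when single arrays or clones were left out, with 0 without the induced A3 array (1.31%) or clone A3 (0.0178%) and 6 without clone A4 (6.05%). A3 against the others gave 8 (9.57%), 12 with trend and robust eBayes (12.1%), 12 with a threshold of 0.1 (14.8%), 2 without both arrays just named (2.09%), and 2 to 8 when single arrays or clones were left out, with 2 without the induced array of A1 (4.30%) or of A3 (2.91%). A1 gave 0 (0.666%), 1 with array medians subtracted (0.788%), 1 with a threshold of 0.1 (1.36%), 1 with no condition term (1.04%), 2 with 1 probe set per gene (2.57%) and 3 with trend and robust eBayes (1.48%). Leaving out arrays or clones gave 0 to 6 calls for A1, the 6 without clone A4 (6.05%), and 0 to 3 for A4, the 3 without clone A1 (4.18%), where the contrast is with A3 alone. Of 133 refits of the 8 calls in A3, 89 kept the call, 44 lost it and 0 reversed. Array medians subtracted moved the share of higher calls in A3 over all probe sets to 34.9%, with 40.7% as deposited. All 6 Mcm genes were lower in A3 in each of 19 settings, though some of these change only the test and not the differences.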
